A study of Mus musculus with 20 samples.

Results

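The data describe 10 genes that Wnt signaling keeps active in the hepatocytes around the central vein of the liver lobule: Glul, Oat, Rhbg and Slc1a2 of nitrogen and amino acid metabolism, Axin2, Lgr5, Rnf43 and Znrf3 of the Wnt feedback circuit, the transcription factor Tbx3 and the secreted protein Lect2. They were taken from the deposited table of raw read counts by matching its Ensembl gene IDs to these symbols in the GENCODE M21 annotation, and all 10 were found among the 21780 genes of the table. All 10 had enough reads to be among the 15522 genes tested. The rule that names them uses no measured value, but they were chosen with earlier results of these data known. The livers came from 20 male C57BL/6J mice, 8 weeks old at the start, all fed a high-fat diet (HFD, 42% of calories as fat) for 12 weeks, with 5 mice in each of 4 groups. The HFD control mice received corn oil, the HFD + Aroclor 1260 mice a commercial mixture of polychlorinated biphenyls (PCBs) that is mostly non-dioxin-like (20 mg/kg), the HFD + PCB 126 mice a single dioxin-like congener (20 µg/kg), and the HFD + Aroclor 1260 + PCB 126 mice both at these doses. Each was given once by gavage after 2 weeks of the diet, although the sample labels give 12 weeks of treatment. No mouse was on a control diet, so the effect of HFD itself cannot be read from these libraries. Whole liver was sequenced, so that fewer pericentral hepatocytes and less RNA in each of them cannot be told apart.

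The liver lobule is divided into zones along the path of the blood. Endothelial cells of the central vein release Wnt2, Wnt9b and R-spondin 3, which act through Frizzled and Lrp5/6 receptors and Lgr4/5 on neighboring hepatocytes, stabilize β-catenin and let it act with TCF/LEF factors on DNA. Glul marks the innermost ring of hepatocytes, which takes up the ammonia that escaped the periportal urea cycle. Axin2, Rnf43 and Znrf3 are targets of the pathway that in turn restrain it. PCB 126 acts mainly through the aryl hydrocarbon receptor (AhR), whose targets Cyp1a1 and Cyp1a2 are themselves strongest in pericentral hepatocytes.

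Promoter sequences are shown for 3 genes, because Slc1a2 had the smallest adjusted p of the 10 genes with both agents, Lect2 has the same TCF/LEF core beside its start, and Glul, the usual marker of the zone, has none in this window. Each sequence holds the 250 bases before the start of the gene in RefSeq, build GRCm38.p6, read 5′ to 3′ on the gene's strand. Capitals mark the TCF/LEF core CTTTG or its reverse, CAAAG.
Slc1a2, chr2:102706188-102706437, plus strand: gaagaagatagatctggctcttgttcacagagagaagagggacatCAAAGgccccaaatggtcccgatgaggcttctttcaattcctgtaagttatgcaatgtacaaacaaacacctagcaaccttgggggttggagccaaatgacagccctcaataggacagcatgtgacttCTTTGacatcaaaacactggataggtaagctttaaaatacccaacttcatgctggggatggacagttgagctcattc
Lect2, chr13:56548539-56548788, minus strand: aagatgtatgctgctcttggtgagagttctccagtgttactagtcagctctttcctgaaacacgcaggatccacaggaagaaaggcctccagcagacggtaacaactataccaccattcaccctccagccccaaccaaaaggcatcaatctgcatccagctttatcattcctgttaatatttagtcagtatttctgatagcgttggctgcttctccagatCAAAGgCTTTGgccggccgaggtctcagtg
Glul, chr1:153899679-153899928, plus strand: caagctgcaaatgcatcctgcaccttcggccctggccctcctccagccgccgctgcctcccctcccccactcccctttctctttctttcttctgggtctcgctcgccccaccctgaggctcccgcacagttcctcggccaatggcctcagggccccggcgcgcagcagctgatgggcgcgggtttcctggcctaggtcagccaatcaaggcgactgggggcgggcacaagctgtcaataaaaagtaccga
The Slc1a2 window lies inside the GENCODE span of the gene (chr2:102658659-102790784), and 29 of its bases are in annotated exons. Its cores begin 205 and 77 bases before the RefSeq start. Those of Lect2 begin 30 and 24 bases before its start. The core occurred on either strand in 48.6% of the 32851 windows of this length, so that its presence is common. Like that of Glul, the windows of Oat and Axin2 and the 2 windows of Rnf43 held none. The core of the AhR response element, GCGTG on either strand, occurred in 28.2% of the windows, once in that of Lect2, once in 1 of the 2 windows of Rnf43, and in none of those of Slc1a2, Glul, Oat and Axin2. All 250 bases of the Rnf43 window with this core are in annotated exons of the gene. In all, 6 of the 10 genes were matched to a window. These matches describe letters and were not tested as binding sites.

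The depth of the libraries was 21836506 to 36854887 counts. Levels are given in CPM, which divide the count of a gene by the TMM-scaled depth of its library, and differences as the log2 fold change (log2FC) with its SE from edgeR's quasi-likelihood test. A gene was called at an adjusted p (Benjamini-Hochberg over the 15522 genes) under 0.05. The libraries differed in how their counts depended on the GC content of the transcripts. The slope of log2 CPM on GC content (per 10 percentage points) was 0.234 ± 0.131 (SD, n = 5) in HFD control, -0.0007 ± 0.0736 with Aroclor 1260, 0.103 ± 0.189 with PCB 126 and -0.337 ± 0.163 with both. It was lower than in control with Aroclor 1260 (two-sided exact permutation test, p = 0.0159, n = 5) and with both agents (p = 0.00794, the smallest that 252 splits allow), and its difference with PCB 126 did not pass (p = 0.222). Values after a correction for this dependence are therefore given beside the calls, and its part in them was not tested further. As a check of the exposures, Cyp1a2 was at 1120 to 2601 CPM with PCB 126 and at 537 to 992 CPM with both agents, against 249 to 517 CPM in HFD control. Cyp1a1 was at 4.09 to 314 CPM with PCB 126 against 0.219 to 0.94 CPM in control, and at 0.792 to 2.62 CPM with both agents. Cyp2b10, a target of the constitutive androstane receptor, was at 0.351 to 6.62 CPM in control, 2.89 to 30.7 CPM with Aroclor 1260, 0.53 to 9.99 CPM with PCB 126 and 1.43 to 25.7 CPM with both. Its log2FC was 1.97 ± 0.75 with Aroclor 1260 (adjusted p = 0.222) and 1.72 ± 0.75 with both agents (adjusted p = 0.083), and the ranges overlapped those of control. The hepatocyte markers reached 76641 to 107832 CPM in sum in every library.

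Between genes, levels were compared as FPKM, that is CPM divided by exon length in kilobases, averaged over the 20 mice. Oat was the most abundant at 1373 FPKM, followed by Glul at 508, Lect2 at 224 and Slc1a2 at 28.5. Tbx3 at 6.29, Rnf43 at 4.63 and Rhbg at 3.18 FPKM formed a lower tier. Axin2 at 1.32, Znrf3 at 1.21 and Lgr5 at 0.888 FPKM were the lowest. Rhbg had 55 to 329 counts in a library, Axin2 95 to 340 and Lgr5 151 to 378, against 26297 to 70517 for Glul. The exons of Glul overlap those of Teddm2 on the opposite strand and the exons of Rhbg those of Gm38392 on the same strand. These neighbors had 25 to 77 and 0 to 2 counts in a library.

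Slc1a2, which encodes the glutamate transporter that brings glutamate to pericentral hepatocytes, was higher in the mice given PCB 126. Its levels in HFD control were 287, 294, 364, 248 and 358 CPM, and with Aroclor 1260 they were 337, 329, 285, 353 and 348 CPM. With PCB 126 they were 390, 404, 472, 421 and 507 CPM, and with both agents 430, 417, 392, 387 and 469 CPM. Every mouse with PCB 126 was thus above every mouse without it, from 387 to 507 CPM against 248 to 364 CPM. Taken over both Aroclor 1260 backgrounds, a comparison of 10 against 10 mice that was added after the values had been seen, the log2FC was 0.42 ± 0.08 (SE, adjusted p = 0.00761), a 1.34-fold difference (95% interval 1.2 to 1.5). Only 5 of the 15522 genes were higher in all 10 mice with PCB 126 than in all 10 without it (0.0322%). The other 4 were Cyp1a2, Slc46a3, Cipc and Nsun7, which were listed after their values were seen. In this comparison 5.59% of the genes were called, 2.96% as higher. Against HFD control, Slc1a2 differed with both agents (log2FC 0.43 ± 0.11, adjusted p = 0.00521) and missed the threshold with PCB 126 alone (log2FC 0.50 ± 0.11, adjusted p = 0.0548), although no mouse given PCB 126 overlapped the controls. Of all genes, 1.23% lay above control without overlap with PCB 126 and 10.6% with both agents. With Aroclor 1260 its log2FC was 0.09 ± 0.11 (adjusted p = 0.663). On GC-corrected counts no call remained: the log2FC was 0.51 with PCB 126 (adjusted p = 0.108), 0.25 with both agents (adjusted p = 0.309) and 0.36 over both backgrounds (adjusted p = 0.0821). With the GC slope as a covariate instead, Slc1a2 was called with PCB 126 (log2FC 0.50, adjusted p = 0.0137) and over both backgrounds (log2FC 0.43, adjusted p = 0.0451), and not with both agents (log2FC 0.46, adjusted p = 0.404). The call over both backgrounds held without any 1 of the 20 mice, with log2FC from 0.39 to 0.45.

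Tbx3, a T-box repressor that follows β-catenin activity in the liver, had the same pattern with a wider spread. HFD control mice were at 31.2, 41.0, 32.3, 43.6 and 20 CPM and Aroclor 1260 mice at 42.2, 31.5, 24.4, 40.4 and 42.9 CPM. PCB 126 mice were at 45, 44.8, 55.8, 35.6 and 57.4 CPM, and mice given both at 51.0, 49.7, 46.2, 54.5 and 43.8 CPM. Only 1 PCB 126 mouse, at 35.6 CPM, fell within the range of the unexposed mice. The group given both agents lay above control without overlap, as it did for 10.6% of all genes. The log2FC was 0.54 ± 0.18 with both agents (adjusted p = 0.0277), a 1.46-fold difference (95% interval 1.12 to 1.90). After GC correction it was 0.75 (adjusted p = 0.0228), so that Tbx3 was the only one of the 10 genes called both before and after the correction. With PCB 126 alone the log2FC was 0.51 ± 0.18 (adjusted p = 0.218) and with Aroclor 1260 it was 0.11 ± 0.18 (adjusted p = 0.766). Over both backgrounds the log2FC with PCB 126 was 0.47 ± 0.13 (adjusted p = 0.0392), and 0.57 on GC-corrected counts (adjusted p = 0.0288), where 1.02% of all genes were called. With the GC slope as a covariate instead, Tbx3 lost both calls. The log2FC was then 0.37 with both agents (adjusted p = 0.761) and 0.40 over both backgrounds (adjusted p = 0.294). The call over both backgrounds is near the threshold. It was kept in 6 of the 20 fits that left out a mouse (adjusted p from 0.0201 to 0.079), and the call with both agents in 6 of 10. The fits without HFD control replicates 1, 3 and 5 and without replicate 4 of the combined group lost the latter.

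**Figure D1:**
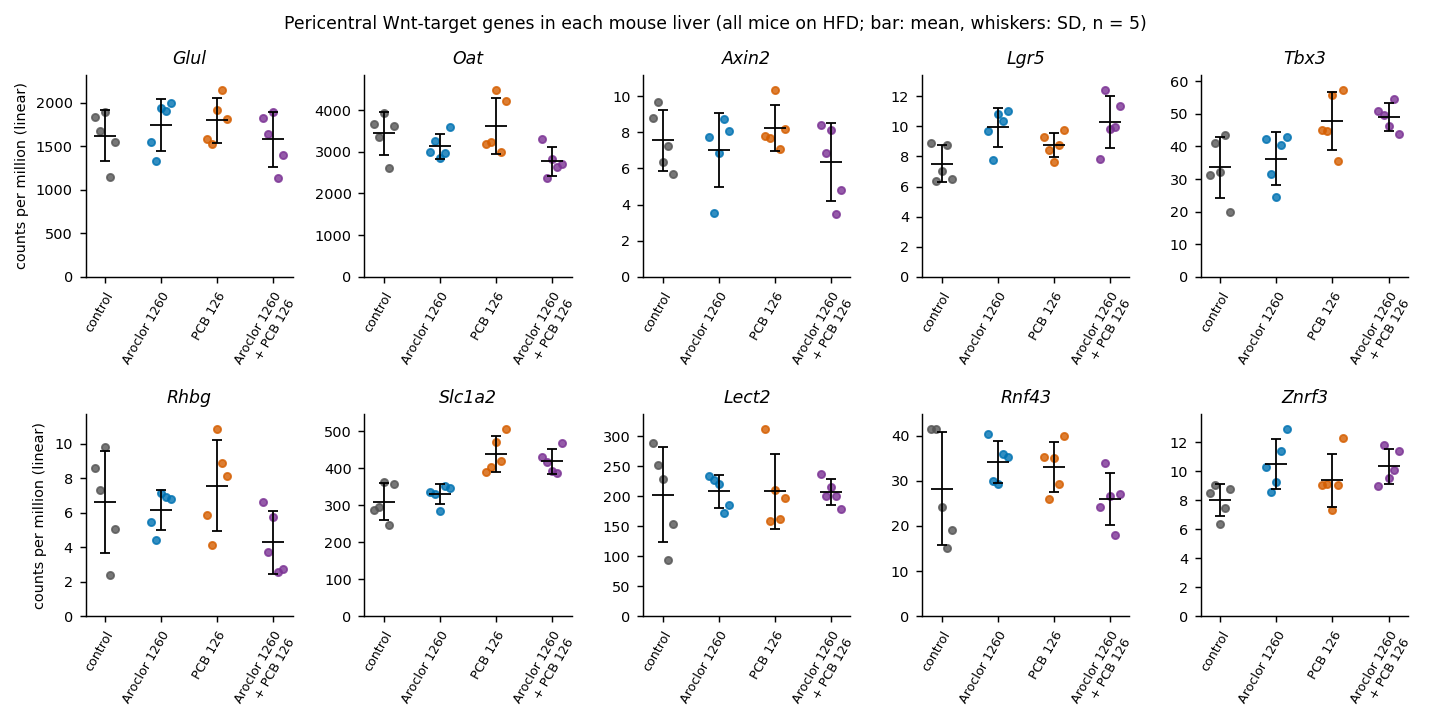
Level of each of the 10 genes (y axis, CPM, linear from 0) in every liver by exposure group (x axis); points are single mice, bars means and whiskers SD (n = 5). Slc1a2 is at 387 to 507 CPM in the 10 mice with PCB 126 and at 248 to 364 CPM in the 10 without it, while Glul spans similar ranges in all groups.

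Glul, Oat and Rhbg, which dispose of ammonia and amino groups beside the central vein, were not called in the main edgeR fit in any exposure against control. Glul encodes glutamine synthetase and was at 1623 ± 295 CPM in HFD control (SD, n = 5), 1747 ± 294 CPM with Aroclor 1260, 1799 ± 255 CPM with PCB 126 and 1582 ± 312 CPM with both. The 4 groups overlapped, and the log2FC was 0.11 ± 0.16 with Aroclor 1260 (adjusted p = 0.733), 0.15 ± 0.16 with PCB 126 (adjusted p = 0.702) and -0.04 ± 0.16 with both (adjusted p = 0.891). The 95% interval of the fold for both agents ran from 0.776 to 1.22. Oat encodes ornithine aminotransferase, which turns ornithine toward glutamate. It was at 3439 ± 507 CPM in control, 3132 ± 298 with Aroclor 1260, 3618 ± 681 with PCB 126 and 2776 ± 348 CPM with both. The lowest mean was in the group given both agents, whose highest mouse was at 3316 CPM, and its log2FC was -0.31 ± 0.13 against control (adjusted p = 0.0776) and -0.38 ± 0.13 against PCB 126 (adjusted p = 0.051). DESeq2 called it lower in both, and of 10 alternatives 2 called it against control and 4 against PCB 126. Rhbg, an ammonium transporter of the cell membrane, was at 6.63 ± 2.95 CPM in control, 6.15 ± 1.17 with Aroclor 1260, 7.57 ± 2.63 with PCB 126 and 4.29 ± 1.82 CPM with both. Its log2FC with both agents was -0.64 ± 0.33 against control (adjusted p = 0.142) and -0.82 ± 0.33 against PCB 126 (adjusted p = 0.0816). The order of the 4 group means in CPM was the same for the 3 genes only in that PCB 126 was the highest and the combination the lowest, and for each of them neighboring groups in this order overlapped. On GC-corrected counts the log2FC of Glul, Oat and Rhbg with both agents against control was -0.06, -0.51 and -0.23 (adjusted p = 0.903, 0.0733 and 0.717). With the GC slope as a covariate it was 0.71, 0.0057 and 0.96 (adjusted p = 0.121, 0.996 and 0.405).

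Of Lgr5, Znrf3, Axin2 and Rnf43, the feedback genes among the 10, the main edgeR fit called Lgr5 alone against control. Lgr5, the R-spondin receptor that marks cells with high Wnt activity, was at 6.36 to 8.88 CPM in HFD control (median 7.02), at 7.76 to 11 CPM with Aroclor 1260 (median 10.3), at 7.65 to 9.74 CPM with PCB 126 (median 8.76) and at 7.83 to 12.4 CPM with both (median 9.96). In the group given both, 4 of the 5 mice were above every control mouse. Its log2FC was 0.45 ± 0.13 with both agents (adjusted p = 0.0138), a 1.37-fold difference, and 0.27 on GC-corrected counts (adjusted p = 0.225). With the GC slope as a covariate it was 0.32 (adjusted p = 0.717). Lgr5 averaged 0.888 FPKM, under the study's minimum mean of 1 FPKM, so that the FPKM filter left it untested. Aroclor 1260 alone gave a log2FC of 0.40 ± 0.13 (adjusted p = 0.2) and PCB 126 alone one of 0.22 ± 0.13 (adjusted p = 0.447). Znrf3, a ubiquitin ligase that removes Frizzled receptors from the cell surface, was at 6.37 to 9.07 CPM in control, 8.61 to 12.9 CPM with Aroclor 1260, 7.35 to 12.3 CPM with PCB 126 and 8.98 to 11.8 CPM with both. Its log2FC was 0.38 ± 0.14 with Aroclor 1260 (adjusted p = 0.215), 0.22 ± 0.14 with PCB 126 (adjusted p = 0.483) and 0.36 ± 0.14 with both (adjusted p = 0.0522). In the main edgeR fit Znrf3 thus missed the threshold in each exposure. With both agents it was called higher under 6 of 10 alternatives, DESeq2 among them.

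Axin2, the scaffold of the β-catenin destruction complex, and Rnf43, the partner ligase of Znrf3, showed no call. Axin2 was at 7.55 ± 1.68 CPM in control (SD, n = 5), 7.0 ± 2.04 with Aroclor 1260, 8.22 ± 1.27 with PCB 126 and 6.34 ± 2.15 CPM with both. Its log2FC was -0.11 ± 0.24, 0.12 ± 0.24 and -0.26 ± 0.24 in this order of exposures (adjusted p = 0.814, 0.856 and 0.441). Rnf43 was at 28.3 ± 12.4 CPM in control, 34.2 ± 4.56 with Aroclor 1260, 33.1 ± 5.55 with PCB 126 and 26.0 ± 5.76 CPM with both, with log2FC of 0.27 ± 0.23, 0.22 ± 0.23 and -0.13 ± 0.23 (adjusted p = 0.53, 0.689 and 0.723). The control mice alone spanned 15.1 to 41.5 CPM. After GC correction the log2FC of Axin2 was 0.04, 0.25 and 0.11 and that of Rnf43 0.42, 0.35 and 0.22 in the same order, none of them called, so that Axin2 with Aroclor 1260 and both genes with both agents turned positive. Lect2, a hepatocyte-secreted protein used as a readout of β-catenin, had nearly the same mean in the 4 groups, 203 ± 78.5, 208 ± 27.9, 208 ± 62.2 and 207 ± 21.6 CPM. Its log2FC was 0.03 ± 0.23 with Aroclor 1260, 0.04 ± 0.23 with PCB 126 and 0.03 ± 0.23 with both (adjusted p = 0.946, 0.96 and 0.946), and the 95% interval of the fold with both ran from 0.735 to 1.41.

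Counted over the 10 genes, none was called with Aroclor 1260, where 0% of all genes tested were called, and none with PCB 126, where 0.116% were. At an unadjusted p under 0.05 there were 2 genes in each, Lgr5 and Znrf3 with Aroclor 1260 and Slc1a2 and Tbx3 with PCB 126. DESeq2 called 0 of the 10 with Aroclor 1260 and 1 with PCB 126. Over all 15522 genes, 2677 had an unadjusted p under 0.05 with Aroclor 1260 and 2280 with PCB 126. With Aroclor 1260 the main edgeR fit called 0 of all genes and DESeq2 135. With both agents 3 genes were called, Slc1a2, Lgr5 and Tbx3, all higher. This is 30% of the 10 genes, beside 32.8% of all genes called and 15.8% called higher, so that the share is near the background. The median log2FC of the 10 genes was -0.01, and that of all genes tested -0.00096. After GC correction 1 of the 10 was called with both agents, beside 4.3% of all genes. With PCB 126 alone the log2FC of the 10 ran from 0.04 to 0.51 (median 0.20), beside a median of -0.018 for all genes. In the interaction they ran from -0.71 to -0.04 (median -0.24), beside -0.0017. These shared signs were not tested. None of the 10 was called between the combined group and either single exposure, where 0.412% (against Aroclor 1260) and 16.7% (against PCB 126) of all genes were, and none in the interaction of the agents, where 0% were. For Aroclor 1260 over both PCB 126 backgrounds, a comparison also added after the values were seen, 24.4% of all genes were called. Oat was lower in it (log2FC -0.26 ± 0.09, adjusted p = 0.0482) and Lgr5 higher (log2FC 0.32 ± 0.09, adjusted p = 0.0222). After GC correction no gene of the table was called in it. The call of Oat was kept in 7 and that of Lgr5 in 19 of the 20 fits that left out a mouse, Lgr5 losing it without HFD + Aroclor 1260 replicate 5 (adjusted p = 0.0555). The comparisons with control share the same 5 control mice.

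**Figure D2:**
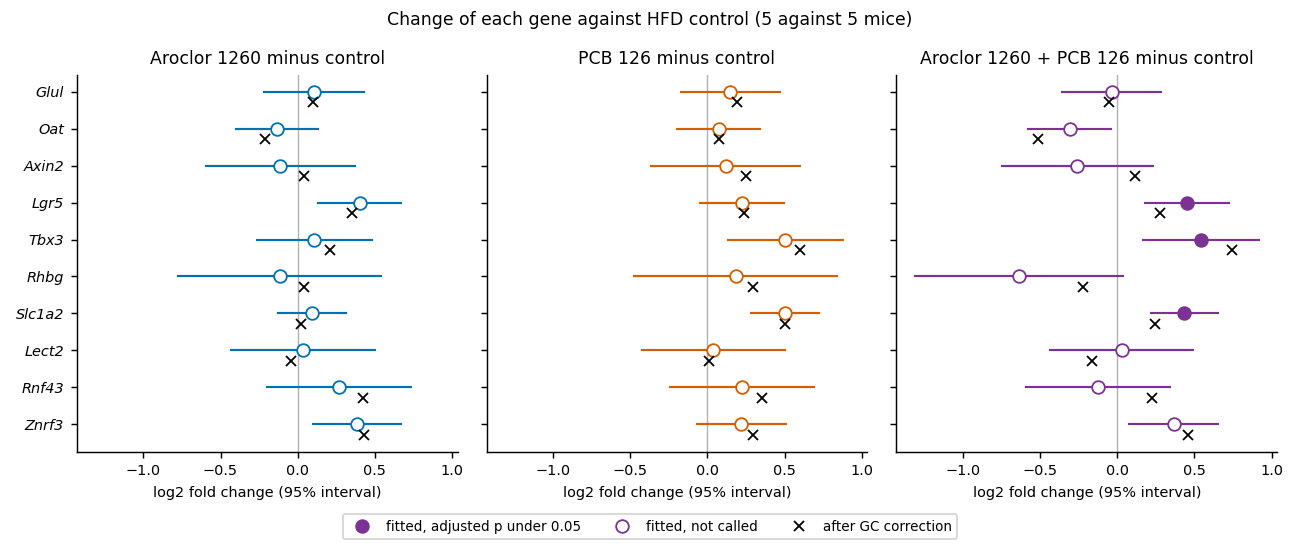
The log2FC of each of the 10 genes against HFD control (x axis, with the 95% interval) for the 3 exposures; filled circles are called at an adjusted p under 0.05, open circles are not, and crosses are the values after GC correction. Lgr5, Tbx3 and Slc1a2 are called with both agents, and of these Tbx3 stays called after the correction.

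Within groups, 1 of the 45 pairs among the 10 genes passed a test of correlation, made before GC correction. The deviations of log2 CPM from the group mean were correlated over the 20 mice, with the mice permuted within groups (100000 permutations) and p adjusted over 55 relations, that is 45 pairs of genes and the relation of each gene with the GC slope of its library. Only Glul and Rhbg passed among the pairs, with Pearson's r of 0.90 (permutation p = 1e-05, the smallest they can give, adjusted p = 0.00055) and Spearman's rho of 0.88 (permutation p = 1e-05, adjusted p = 0.00055). The r was 0.86 without the 2 mice farthest from the median of Glul, and 0.895 on GC-corrected values. The lowest Glul levels, 1153 CPM in HFD control replicate 4 and 1140 CPM in replicate 4 of the combined group, went with the lowest Rhbg levels, 2.41 and 2.58 CPM. Both genes also followed the GC slope of the library. The r with it was 0.74 for Glul (permutation p = 0.00041, adjusted p = 0.0113) and 0.75 for Rhbg (permutation p = 0.00092, adjusted p = 0.0169). The rho was 0.77 (permutation p = 0.00042, adjusted p = 0.0077) and 0.82 (permutation p = 0.00036, adjusted p = 0.0077), and the r 0.66 and 0.74 without the 2 farthest mice. Next among the pairs came Oat and Slc1a2 (r = 0.68), Lect2 and Rnf43 (r = 0.68) and Glul and Axin2 (r = 0.64), none of which passed after adjustment. On GC-corrected values, which were not tested, these r were 0.82, 0.71 and 0.53. The correction raised the r of Oat and Rhbg from 0.64 to 0.80 and that of Glul and Oat from 0.41 to 0.68. It lowered that of Axin2 and Rhbg from 0.54 to 0.45. A pair that did not pass is not thereby shown to be unrelated. Tbx3 and Slc1a2, the pair higher with PCB 126, had an r of -0.06 within groups.

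**Figure D3:**
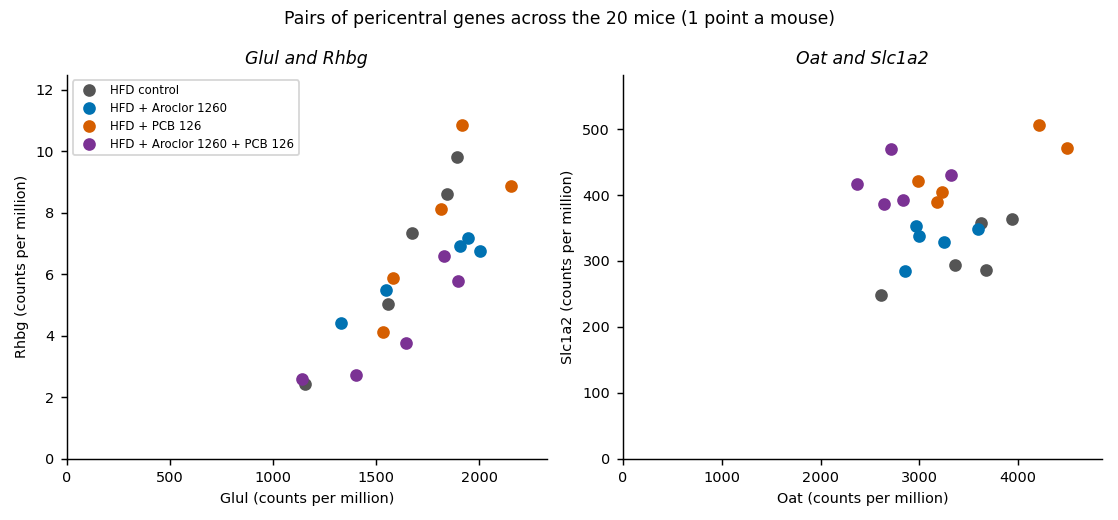
Glul against Rhbg (left) and Oat against Slc1a2 (right) in CPM, 1 point a mouse, colored by group. Rhbg rises with Glul across all groups (within-group r = 0.90). In the right panel the mice with PCB 126 lie above the others in Slc1a2, while the Oat levels of the groups overlap.

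Among 11341 genes compared, Rhbg ranked 22 in likeness to Glul by this within-group r, and Axin2 ranked 1409. Among the genes most like Glul over the 20 mice were Actr1b (r = 0.95), Gpd1 (r = 0.94), Man2c1 (r = 0.93) and Vps52 (r = 0.93). Gpd1 is the cytosolic glycerol-3-phosphate dehydrogenase. The 5 most like Axin2 were Bcorl1, Cops7b, Mlst8, Phldb3 and Atxn7l3 (r from 0.84 to 0.85). The values of 2 genes in a mouse come from the same library, with its depth and GC slope. With the GC correction the r of Actr1b with Glul was 0.69 and that of Vps52 was 0.92.

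The ligands that maintain the zone were at low levels and none was called against control in the main edgeR fit. Wnt2 averaged 4.19 CPM in HFD control and 2.80 CPM with PCB 126 (log2FC -0.58 ± 0.27, adjusted p = 0.324), Wnt9b 1.05 and 0.657 CPM (log2FC -0.69 ± 0.41, adjusted p = 0.449) and Rspo3 7.82 and 6.43 CPM (log2FC -0.28 ± 0.17, adjusted p = 0.442). With both agents these 3 had log2FC of -0.29, -0.02 and 0.24 (adjusted p = 0.453, 0.981 and 0.298). Of 11 listed Wnt ligands and R-spondins, 9 were tested and 0 called with both agents in the main edgeR fit. At an unadjusted p under 0.05 there was 1, beside 6581 of all 15522 genes. Wnt5b, a ligand of β-catenin-independent signaling, had the smallest adjusted p of the 9 (log2FC 0.57 ± 0.22, adjusted p = 0.0544). After GC correction it was called higher with both agents (log2FC 1.07, adjusted p = 0.012) and with PCB 126 (log2FC 1.11, adjusted p = 0.0313).

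Among the Wnt pathway lists the smallest adjusted p with both agents was that of the receptor Fzd4. It was at 25.9 to 52.2 CPM in HFD control, 53.3 to 100 CPM with Aroclor 1260, 59.4 to 94.5 CPM with PCB 126 and 85.5 to 107 CPM with both, so that no exposed mouse overlapped the controls. Of all genes, 1.23% lay above control without overlap with PCB 126 and 10.6% with both agents. The share for Aroclor 1260 is not given here. Its log2FC was 1.25 ± 0.19 with both agents (adjusted p = 0.000582), 0.99 ± 0.19 with PCB 126 (adjusted p = 0.0414) and 0.82 ± 0.19 with Aroclor 1260 (adjusted p = 0.184). On GC-corrected counts it was 1.02 with both agents (adjusted p = 0.0114) and 0.97 with PCB 126 (adjusted p = 0.0478). With both agents 6 of the 13 tested receptors and co-receptors were called, 5 higher and 1 lower, beside 32.8% of all genes, and their median log2FC was 0.52. The co-receptors moved apart: Lrp6 had a log2FC of 0.65 ± 0.16 (adjusted p = 0.0052) and Lrp5 of -0.94 ± 0.21 (adjusted p = 0.00261). Lgr4, another R-spondin receptor, was higher (log2FC 0.65 ± 0.16, adjusted p = 0.00524). After GC correction 2 receptors were called, Fzd4 and Fzd1, and Lrp5, Lrp6 and Lgr4 were not (adjusted p = 0.116, 0.152 and 0.1).

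Of the 18 intracellular transducers, 9 were called with both agents, 3 higher and 6 lower, with a median log2FC of -0.30, beside 32.8% of all genes called. The 3 higher genes were Csnk1a1 by a log2FC of 0.52 ± 0.11 (adjusted p = 0.0023), Gsk3b by 0.51 ± 0.14 (adjusted p = 0.00749) and Apc by 0.53 ± 0.15 (adjusted p = 0.0125). They are parts of the β-catenin destruction complex, and the other listed parts of it were not called higher. Among the 6 lower genes were Dvl1, which relays the receptor signal, and Bcl9l, a coactivator of β-catenin, with log2FC of -0.81 ± 0.17 (adjusted p = 0.00223) and -0.98 ± 0.24 (adjusted p = 0.00427). The GC correction moved the median of the list to 0.19 and left only Btrc called (log2FC -0.53, adjusted p = 0.0186). Btrc also belongs to the destruction complex and was lower. The other feedback targets gave 2 calls of 10, or 20%, beside the same 32.8%. Notum, a secreted inactivator of Wnt proteins, was lower with both agents (log2FC -0.94 ± 0.22, adjusted p = 0.00358), and Tnfrsf19 was higher (log2FC 0.51 ± 0.18, adjusted p = 0.0402). Sp5 and Nkd1 missed the threshold (log2FC -0.71 and -0.41, adjusted p = 0.0704 and 0.138). After GC correction none of these 10 was called by edgeR, and the log2FC of Notum was -0.42 (adjusted p = 0.146).

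Other pericentral genes were compared with periportal ones in the combined exposure. Of 20 pericentral genes outside the 10, 7 were called, 6 higher and 1 lower, with a median log2FC of 0.39. Higher were, among others, the cytochrome P450 genes Cyp1a2 (log2FC 1.00 ± 0.23, adjusted p = 0.00325), Cyp2c54 (0.95 ± 0.22, adjusted p = 0.0032) and Cyp2c50 (0.70 ± 0.15, adjusted p = 0.00254), with the retinaldehyde dehydrogenase Aldh1a1 (0.69 ± 0.16, adjusted p = 0.0035). Cyp2e1, the most abundant of the pericentral P450 genes, was at 16798 to 19873 CPM in control and 17194 to 23247 CPM with both (log2FC 0.22 ± 0.11, adjusted p = 0.138). Of 20 periportal genes, 6 were called, 2 higher and 4 lower, with a median log2FC of -0.04. Ass1 of the urea cycle (log2FC -0.38 ± 0.10, adjusted p = 0.00736), Igfals (-0.89 ± 0.23, adjusted p = 0.00662) and Sds (-0.84 ± 0.25, adjusted p = 0.0156) were lower, and Hsd17b13 was higher (0.28 ± 0.09, adjusted p = 0.0234). Both shares, 35% and 30%, stand beside 32.8% of all genes. After GC correction Cyp1a2 was the only call of the 40 genes, and the medians were 0.25 for the pericentral and 0.03 for the periportal genes. With PCB 126 alone Cyp1a2 was the 1 pericentral call (log2FC 2.04 ± 0.24, adjusted p = 0.000294) and no periportal gene was called.

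**Figure D4:**
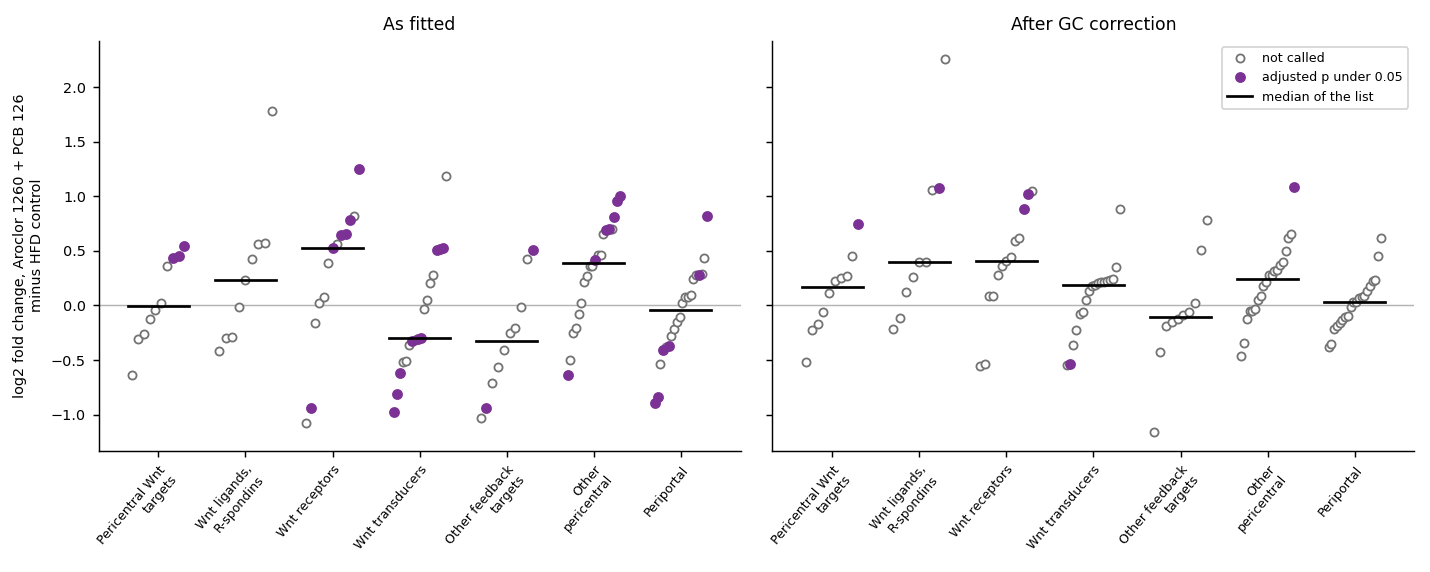
The log2FC with Aroclor 1260 + PCB 126 against HFD control (y axis) of the genes of 7 lists (x axis), as fitted (left) and after GC correction (right); each point is a gene, filled where its adjusted p is under 0.05, and lines are list medians. The median of the transducers lies at -0.30 in the left panel and at 0.19 in the right one, while that of the receptors stays above 0 in both.

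Markers of other cells of the liver were read beside these results. The 6 markers of central vein endothelium (Wnt2, Wnt9b, Rspo3, Thbd, Cdh13 and Kit) summed to 17.1 to 32.4 CPM in HFD control, 20.2 to 28.4 CPM with Aroclor 1260, 11.3 to 23.6 CPM with PCB 126 and 20.6 to 30.9 CPM with both. None of the 6 was called in any exposure against control. With PCB 126 all 6 had negative log2FC (median -0.63) and 3 had an unadjusted p under 0.05, with the largest difference in Thbd (log2FC -1.0 ± 0.27, adjusted p = 0.119). Markers of some other cell types had the same sign with PCB 126. All 8 liver endothelial (median -0.29), all 7 macrophage (median -0.22) and all 6 lymphocyte and neutrophil markers (median -0.33) had negative log2FC. None of these was called, and 3, 0 and 0 of them had an unadjusted p under 0.05, beside 2280 of all 15522 genes. The stellate (log2FC -1.15 to 0.23), cholangiocyte (-0.76 to 0.23) and hepatocyte markers (-0.24 to 0.16) had both signs with PCB 126. With both agents 1 of 8 liver endothelial, 1 of 7 macrophage, 4 of 7 stellate, 0 of 6 cholangiocyte and 1 of 6 lymphocyte and neutrophil markers were called, beside 32.8% of all genes. After GC correction none in these 5 lists was. The stellate markers Lrat and Dcn were higher (log2FC 0.85 and 0.60, adjusted p = 0.00931 and 0.0121) and Des lower (log2FC -1.38, adjusted p = 0.00574). Of the 6 hepatocyte markers 4 were called with both agents, Apoa1, Ttr and Serpina1a lower and Apob higher. After GC correction 1 of these 6 was called, lower. The part of cell composition in the changes of Slc1a2, Tbx3 and Lgr5 was not tested.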

How the data were processed

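The libraries of 20 mice, 5 in each of 4 groups named by the sample labels, were analysed. Per the labels and methods, the authors made poly(A)-selected, strand-specific libraries, checked reads with FastQC 0.10.1, mapped them by STAR 2.6 on GRCm38.p6 and obtained raw counts for each Ensembl gene from HTSeq 0.10.0. They deposited 1 table of these counts, with no normalization. Whether HTSeq used the strand is not given in the sources used here. The title of PCB 126 replicate 2 carries another number in its bracketed name, and its words were followed. Counts differed between all 40 pairs of mice of a group by more than sampling noise.

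The 15522 genes whose counts summed to 10 or more were fitted with edgeR 4.0.16 (R 4.3.3; TMM, 4 groups, 16 residual degrees of freedom) and tested two-sided by its quasi-likelihood test with Benjamini-Hochberg adjustment. Gene names came from GENCODE M21, which matched 21754 of 21780 IDs. For GC correction, each library's deviations of log2 CPM were smoothed over transcript GC content (spline, 6 degrees of freedom) and entered as an offset. The script was tested on simulated data. Each agent over both backgrounds of the other was compared as the mean of its 2 effects, a comparison added after seeing the data.

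The 10 genes and all lists were chosen with earlier results of these data known. Named were the 10 genes, up to 4 genes of each other list with the smallest adjusted p with both agents and a mean of at least 1 CPM, the exposure markers, Wnt2, Wnt9b and Rspo3, and the 5 genes most like Glul and Axin2, of which 1 is not reported here. Apc, Btrc, Fzd1, Cyp2e1, Thbd and the genes named beside Slc1a2 were chosen after their values were seen. Alternatives were RLE and upper-quartile normalization, DESeq2 1.42.0, no filter, an FPKM filter (a mean of 1 or more, and 1 or more in 3 libraries), a fit of the compared groups alone, the replicate number as a block, GC correction, the GC slope as a covariate, an adjusted p under 0.01, and leaving out each mouse.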

Additional observations from a re-analysis of the deposited data

How the results depend on the processing

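Direction and call of single genes were unchanged in 335 of 400 values from fits that left out 1 mouse and in 296 of 352 from the other alternatives. Under the GC correction, calls over all genes numbered 47 with PCB 126, 668 with both agents, 3 for both against Aroclor 1260, 0 for both against PCB 126, 158 for PCB 126 over both backgrounds and 0 for Aroclor 1260 over both. Of the 10 genes it called 1 with both agents, 1 for PCB 126 and 0 for Aroclor 1260 over both backgrounds. It turned the log2FC of Axin2 (0.043), Rhbg (0.044) and Lect2 (-0.044) with Aroclor 1260, and of Axin2 (0.11), Lect2 (-0.17) and Rnf43 (0.22) with both agents. With the GC slope of the library as a covariate, 447 genes were called with Aroclor 1260, 676 with PCB 126, 335 with both, 0 for both against either agent, 164 for PCB 126 over both backgrounds and 3 for Aroclor 1260 over both. Of the 10 genes 1 was then called with PCB 126, 0 with both agents, 1 for PCB 126 over both backgrounds and 0 for Aroclor 1260 over both. This covariate turned Axin2 (0.25) and Rhbg (0.60) with Aroclor 1260, Glul (0.71), Oat (0.0057), Axin2 (0.54), Rhbg (0.96) and Rnf43 (0.54) with both agents, and Rhbg (0.41) between both agents and PCB 126. The slope differs between the groups, so that it and the exposure cannot be told apart in these fits.

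The replicate number as a block was tried although the mice share only a number: same-number correlations ran from -0.154 to 0.765 (median 0.0836), 14 of 30 such pairs were over 0.1, and 7 of 20 libraries correlated best with their own number. With the block 26 genes were called with Aroclor 1260, 101 with PCB 126, 475 for both against Aroclor 1260 and 38 in the interaction. Of the 10 genes 1 was called with PCB 126 (Slc1a2) and 2 for both against PCB 126. The block together with the GC correction called 25 genes with Aroclor 1260, 145 with PCB 126, 933 with both, 40 and 153 for both against Aroclor 1260 and against PCB 126, 44 in the interaction, and 187 and 212 for PCB 126 and Aroclor 1260 over both backgrounds, with 1 and 0 of the 10 genes in the last pair. It turned Axin2 (0.049) and Rhbg (0.11) with Aroclor 1260, and Axin2 (0.094), Lect2 (-0.089) and Rnf43 (0.26) with both.

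DESeq2 called 135 genes with Aroclor 1260, 320 with PCB 126, 1343 for both against Aroclor 1260, 1 in the interaction and 1808 for PCB 126 over both backgrounds. Of the 10 genes it called 1 with PCB 126, 5 with both, 1 for both against Aroclor 1260 and 2 for both against PCB 126. At an adjusted p under 0.01 there were 4 genes with PCB 126, 2867 with both, 0 for both against either agent, and 92 and 763 for PCB 126 and Aroclor 1260 over both backgrounds. Of the 10 genes 1 was left with both agents, 1 for PCB 126 and 0 for Aroclor 1260 over both backgrounds. The FPKM filter gave 48 genes with PCB 126 and 728 for both against Aroclor 1260, with 1 of the 10 genes called with PCB 126 and 1 in each comparison of both against a single agent. Upper-quartile normalization gave 9 and 251, RLE normalization 107 for the latter, no filter 13, and the compared groups alone 4 and 0. RLE also called 1 of the 10 genes for both against PCB 126. Upper-quartile scaling turned Lect2 with Aroclor 1260 (-0.012), PCB 126 (-0.0053) and both (-0.0041). Znrf3 was called higher with both agents under RLE, no filter, the FPKM filter, the block with and without GC correction, and DESeq2. Oat was called lower with both agents by DESeq2 and by the block with GC correction, and against PCB 126 under RLE, the FPKM filter, the block and DESeq2. Unless stated, the cause was not tested.

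Leaving out 1 mouse at a time, the genes called ranged from 0 to 2 with Aroclor 1260, 4 to 127 with PCB 126 (the highest without PCB 126 replicate 3), 0 to 1036 for both against Aroclor 1260, 4 to 3416 for both against PCB 126 (the lowest without PCB 126 replicate 3), 335 to 1663 for PCB 126 over both backgrounds and 2490 to 4530 for Aroclor 1260 over both. Of the 10 genes, 0 to 1 were called with PCB 126, 2 to 5 with both (5 without HFD control replicate 4), 0 to 2 for both against PCB 126, 1 to 2 for PCB 126 over both backgrounds and 1 to 3 for Aroclor 1260 over both. With Aroclor 1260 the log2FC ranged from -0.23 to 0.054 for Axin2, -0.029 to 0.22 for Tbx3, -0.32 to 0.061 for Rhbg and -0.15 to 0.19 for Lect2. With PCB 126 it ranged from -0.017 to 0.13 for Oat, -0.027 to 0.36 for Rhbg and -0.16 to 0.20 for Lect2. With both agents it ranged from -0.14 to 0.024 for Glul, -0.16 to 0.19 for Lect2 and -0.28 to 0.053 for Rnf43.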
